A study of Mus musculus with 9 samples.

Results

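The 35 genes described here encode proteins of cell division: the cyclins and kinase that start mitosis, the kinases of the spindle and of cytokinesis, the spindle checkpoint, the machinery of anaphase, the kinetochore, and motors and bundling proteins of the spindle. They were taken by gene symbol from the table of array values, using features that carry a single symbol, and all 35 were found among 19938 genes. Expression had been measured in mouse embryonic stem cells with biotin-labelled sense-strand target on an Affymetrix whole-transcript array, and each value is the log2 signal of a transcript cluster after RMA, a method that summarises a gene's probes. The 9 arrays formed 3 groups of 3 biological replicates on a mixed S129S6-C57BL/6 background. The flox group, named as the control in the labels, had 1 deleted and 1 floxed allele of β-catenin, so all 3 groups lacked at least 1 allele. In the null group both alleles were deleted. The null Eα group was null in the same way and carried, by stable transfection, a construct that fuses E-cadherin to α-catenin. All were grown on gelatin-coated plates in 15% serum with leukaemia inhibitory factor (LIF) at 1000 U/ml and harvested before confluence. Whether the replicates of a group were separate lines or cultures of 1 line, and whether the fusion line was a clone or a pool, is not given in the sources used here, so line and genotype cannot be told apart and the p-values measure only the spread between these arrays.

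Mitosis begins when the kinase Cdk1, bound to cyclin B, becomes active. The spindle then captures chromosomes at their kinetochores, and a checkpoint made of Mad and Bub proteins holds back anaphase until every kinetochore is attached. Once it is satisfied, the anaphase-promoting complex, a ubiquitin ligase switched on by Cdc20 and fed by the conjugating enzyme Ube2c, marks securin and the cyclins for destruction, separase cuts the cohesin rings, and the chromatids part. Embryonic stem cells divide fast and spend little time in G1, and genes of this group are transcribed mainly in G2 and M under the factors B-Myb and FoxM1, which work with the MuvB complex at promoter elements named CHR.

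The deleted gene, Ctnnb1, lay at 11.13, 11.13 and 11.21 on the flox arrays, at 10.55, 10.50 and 10.47 on the null arrays and at 10.23, 10.13 and 10.32 on the null Eα arrays. Probes of this feature that lie outside the deleted part check nothing. Of 12 embryonic stem cell markers 10 were called lower and 2 higher in null cells, and 7 lower and 1 higher in null Eα cells. Esrrb, a marker of the naive state, lay at 10.54 to 10.62 in flox, 4.70 to 5.30 in null and 9.71 to 10.23 in null Eα cells. Pou5f1 fell less, from 11.42 to 11.46 in flox to 10.75 to 10.82 in null cells (-0.65, called lower). In null Eα cells it lay at 11.31 to 11.42 and was not called. Markers of fibroblasts moved in both lines as well, with 12 of 15 called higher and 1 lower in each. The sum of their linear signals ranged between 1520 and 1720 in flox, between 8990 and 11100 in null and between 4940 and 6270 in null Eα cultures, and its part in the results below was not tested. In RNA from whole cultures, fewer dividing cells and less of a transcript per dividing cell cannot be told apart. The arrays did not share 1 distribution, with interquartile ranges over all features of 3.75 to 3.84 in flox, 3.41 to 3.46 in null and 3.21 to 3.37 in null Eα cells. Null Eα replicate 3 correlated with the null arrays at 0.978 to 0.980 over all features, while the other null Eα arrays stood at 0.964 to 0.970.

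In null cells 14 of the 35 mitosis genes were called lower than in flox cells and 8 higher (limma, Benjamini-Hochberg adjusted p under 0.05 over all 19938 genes, n = 3 arrays per group). The share of all genes called was 28.7% lower and 26.5% higher, or 55.2% in either direction, so the number of mitosis genes called was near that of the array as a whole. The median difference over the 35 genes was -0.06 log2 units, against 0.06 over all genes. In null Eα cells 15 were lower and 6 higher than in flox cells, with a median of -0.13, where 31.6% and 32.1% of all genes were called (63.7% in either direction) and the median of all genes was 0.07. Both comparisons use the same 3 flox arrays. The 35 genes ranged from Ube2c at -1.51 to Cenpe at 0.92 in null cells, and from Aurkb at -1.73 to Nuf2 at 0.59 with the fusion. A fall of 2-fold or more was called in 3 (null) and 4 (null Eα) of the 35, against 10.2% and 9.75% of all genes, and a rise of that size in 0 and 0, against 5.03% and 2.22%. The arrays of the groups did not overlap for 25 and 26 of the 35, against 67.4% and 69.5% of all genes. All 35 genes lay in the brighter part of the array, where 43.8% of 11285 genes were called lower and 27.9% higher in null cells (71.7% called), and 49.9% lower and 21.2% higher in null Eα cells (71.2% called). These shares come from a separate fit of the brighter genes alone, adjusted over the 11285. In that fit 14 of the 35 were lower and 9 higher in null cells, and 15 lower and 7 higher in null Eα cells.

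**Figure D1:**
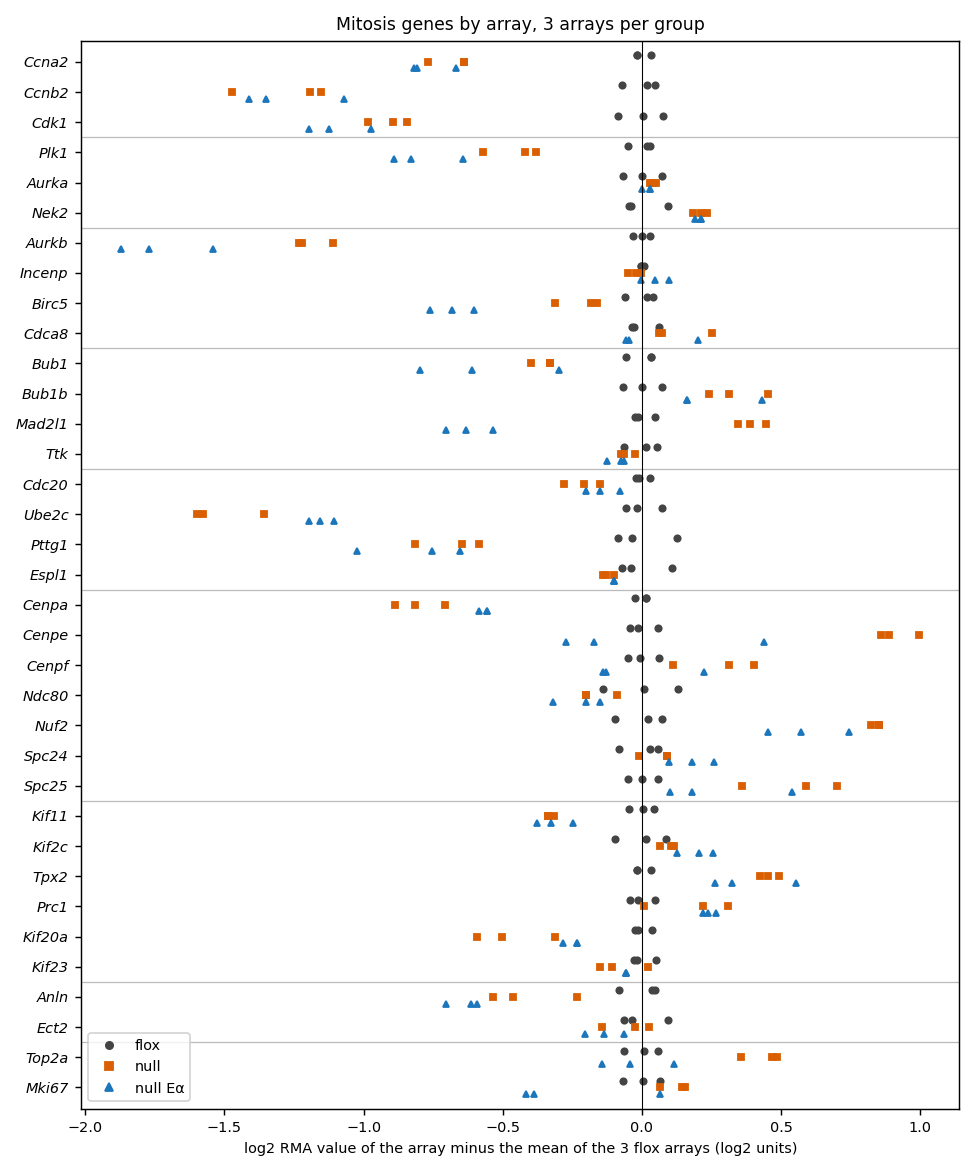
Log2 value of each array minus the flox mean for the 35 mitosis genes (x axis, log2 units), with grey circles for flox, orange squares for null and blue triangles for null Eα arrays, 3 of each, and lines between groups of genes with like roles. Ube2c, Ccnb2 and Aurkb lay furthest below flox, Cenpe and Nuf2 furthest above it in null cells, and Mad2l1 lay on opposite sides of flox in the null and null Eα arrays.

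Promoters of 4 genes that fell in both lines and of 2 that rose in null cells are shown here because genes expressed in G2 and M commonly share the same short elements. The stretches are the 120 bases before the RefSeq start site (GRCm38.p6), written along the gene, with the letters of the CHR element (TTTGAA) and of the CCAAT box (CCAAT), on either strand, in capitals.
Ube2c, chr2:164769809-164769928, plus strand: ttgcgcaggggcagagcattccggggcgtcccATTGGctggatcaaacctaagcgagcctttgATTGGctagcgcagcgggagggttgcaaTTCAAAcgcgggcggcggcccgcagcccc
Ccnb2, chr9:70421555-70421674, minus strand: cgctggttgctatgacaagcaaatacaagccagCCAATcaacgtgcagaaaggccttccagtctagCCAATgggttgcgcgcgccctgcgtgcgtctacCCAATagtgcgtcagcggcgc
Cdk1, chr10:69352913-69353032, minus strand: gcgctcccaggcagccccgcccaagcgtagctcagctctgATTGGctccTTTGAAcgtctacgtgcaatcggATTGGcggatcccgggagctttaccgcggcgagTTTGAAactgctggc
Cenpa, chr5:30666766-30666885, plus strand: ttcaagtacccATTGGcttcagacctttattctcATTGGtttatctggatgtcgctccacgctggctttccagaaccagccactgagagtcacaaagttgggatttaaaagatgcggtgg
Top2a, chr11:99024190-99024309, minus strand: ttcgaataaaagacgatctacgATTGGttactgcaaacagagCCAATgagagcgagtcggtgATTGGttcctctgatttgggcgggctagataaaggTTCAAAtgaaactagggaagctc
Nuf2, chr1:169531465-169531584, minus strand: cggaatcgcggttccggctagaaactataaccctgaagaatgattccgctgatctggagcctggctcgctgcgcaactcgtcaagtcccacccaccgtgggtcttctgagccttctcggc
The first 4 belong to genes that fell, and the last pair to genes that rose. The letters of both elements stand before Ube2c, Cdk1 and Top2a, and neither stands in the stretch shown for Nuf2. The stretches of Ccnb2 and Cenpa show only the CCAAT letters, since the CHR letters of these genes lie outside them, at -167 and 5 (Ccnb2) and at 17 (Cenpa) from the start site.

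Of the 35 genes 29 were in the RefSeq promoter table, which gives 250 bases before and 50 after each start site. In that window 22 of 29 (75.9%) held the CHR letters and 22 of 29 (75.9%) the CCAAT letters, on either strand, against 20.2% and 41.1% of 27025 genes with a promoter in the table. Both sets of letters were found in 19 of 29 (65.5%) and in 7.97% of all genes. In 20 genes the CHR letters lay within 50 bases of the start site, and in 22 the CCAAT letters lay in the 150 bases before it. The related letters TTTAAA were in 8 of 29 (27.6%, against 14.9% of all genes). The E2F letters TTCGCGC and TTGGCGC were in 1 (3.45%) and 3 (10.3%) of 29, against 1.81% and 2.85% of all genes. The CHR letters were in 8 of 11 promoters of genes lower in null cells, in 3 of 7 of genes higher there and in 11 of 11 of genes not called. In null Eα cells the counts were 8 of 12, 3 of 5 and 11 of 12. Genes with the element were thus found in every class of response. Birc5, Mad2l1, Pttg1 and Nuf2 held neither set of letters in this window. A match describes the sequence only and does not show that a factor binds there.

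**Figure D2:**
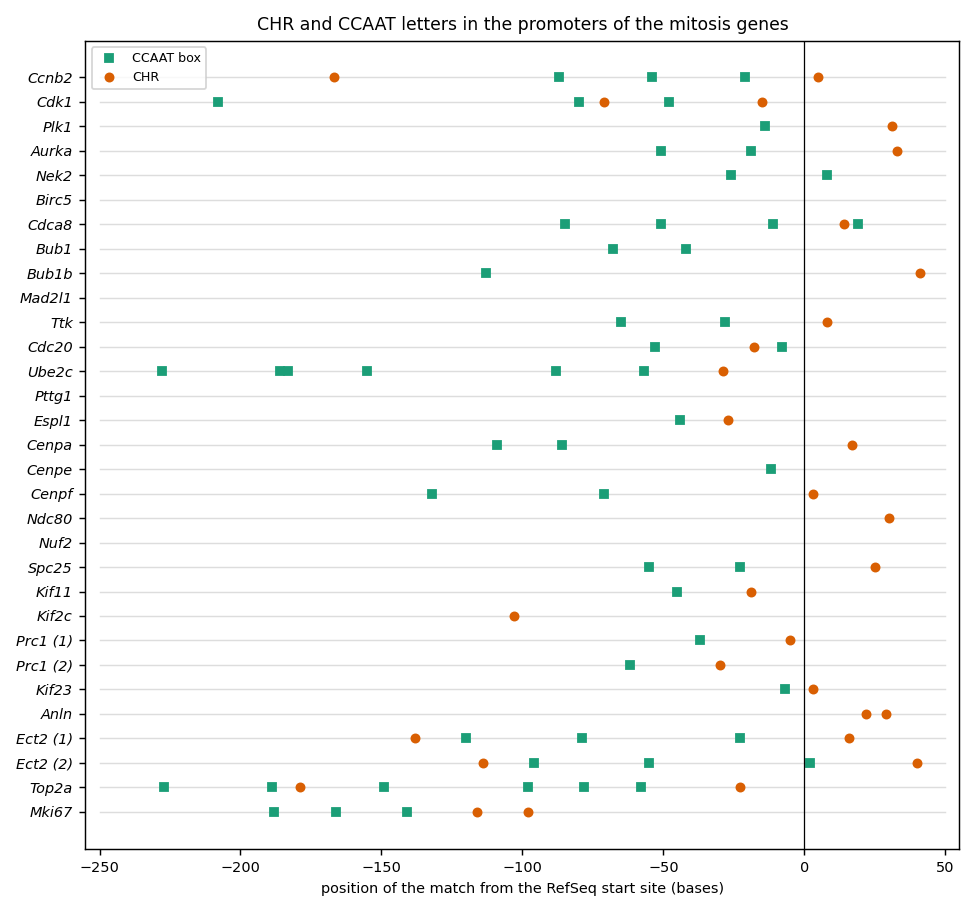
Positions of the CHR letters (orange circles) and the CCAAT letters (green squares) relative to the RefSeq start site at 0 (x axis, bases), in the 29 genes with a promoter, with a second row where the table gives a second start site. CHR letters gather near the start site, and CCAAT letters upstream of them.

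The cyclins Ccna2 and Ccnb2 and the kinase Cdk1 were lower in both lines without β-catenin. Ccnb1, cyclin B1, had no feature with a single symbol and was not analysed. Ccnb2, a B-type cyclin that activates Cdk1 (transcript cluster 10594774), lay at 11.57, 11.66 and 11.69 on the flox arrays, at 10.17, 10.45 and 10.49 on the null arrays and at 10.23, 10.29 and 10.57 on the null Eα arrays. The differences from flox were -1.27 ± 0.11 log2 units (null, standard error, adjusted p = 4.80e-06) and -1.28 ± 0.11 (null Eα, adjusted p = 5.89e-06), which left 41.4% and 41.2% of the flox signal. No null or null Eα array reached a flox array, and the null and null Eα arrays overlapped each other. Cdk1, the kinase itself (10369815), lay at 10.99, 11.08 and 11.15 on the flox arrays, at 10.18, 10.09 and 10.23 on the null arrays and at 9.95, 9.88 and 10.10 on the null Eα arrays. It fell in both lines, by differences of -0.91 ± 0.08 (adjusted p = 5.84e-06) and -1.10 ± 0.08 (adjusted p = 2.01e-06). The null Eα arrays tended lower than the null arrays, but 2 of them lay below and 1 within the null range, and the difference was not called (-0.19 ± 0.08, adjusted p = 0.110). Without null Eα replicate 3 it was -0.25 and called (adjusted p = 0.0347). Ccna2, cyclin A2, which acts from S phase into early mitosis, was at 62.3% of flox in null and 58.9% in null Eα cells (-0.68 ± 0.07 and -0.76 ± 0.07). The 6 falls of these 3 genes were called under each of the 18 alternatives tried.

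The kinases of centrosome and spindle pole did not move together. Plk1, Polo-like kinase, which drives centrosome maturation and cytokinesis (10557156), lay at 11.09, 11.01 and 11.08 on the flox arrays, at 10.49, 10.64 and 10.68 on the null arrays and at 10.23, 10.17 and 10.42 on the null Eα arrays. The 3 groups formed separate steps, at -0.46 ± 0.09 (null, adjusted p = 0.00124) and -0.79 ± 0.09 (null Eα, adjusted p = 3.09e-05) from flox. With each chromosome centred, the null difference was -0.20 and was not called (adjusted p = 0.0537). Nek2, a kinase that parts the centrosomes (10352767), lay at 9.55, 9.54 and 9.68 on the flox arrays, at 9.80, 9.77 and 9.82 on the null arrays and at 9.80, 9.80 and 9.78 on the null Eα arrays. It was slightly higher in both lines, by 0.21 ± 0.07 and 0.20 ± 0.07 (adjusted p = 0.0237 and 0.0235). The null call was lost without flox replicate 1 (0.19), without flox replicate 2 (0.18) and without null replicate 3 (0.20), and the null Eα call without flox replicate 1 (0.18) or flox replicate 2 (0.18). Aurka, Aurora A, which builds the spindle poles, was at 0.04 ± 0.07 and 0.02 ± 0.07 from flox and was not called. It was called higher after quantile normalization (0.18 in null and 0.26 in null Eα cells) and with each chromosome centred (0.19 and 0.24).

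Of the chromosomal passenger complex, which corrects faulty attachments and directs cytokinesis, the kinase and survivin were called lower and the other pair was not called. Aurkb, Aurora B (10377405), lay at 11.27, 11.30 and 11.33 on the flox arrays, at 10.08, 10.07 and 10.19 on the null arrays and at 9.53, 9.43 and 9.76 on the null Eα arrays. These steps did not overlap, and the differences were -1.19 ± 0.09 (null, adjusted p = 1.45e-06) and -1.73 ± 0.09 (null Eα, adjusted p = 1.91e-07), which left 43.9% and 30.2% of flox. Birc5, survivin, which anchors the complex at centromeres (10382998), lay at 8.99, 9.07 and 9.09 on the flox arrays, at 8.89, 8.74 and 8.87 on the null arrays and at 8.45, 8.29 and 8.37 on the null Eα arrays. It fell in both lines, with differences from flox of -0.22 ± 0.08 (null, adjusted p = 0.0296) and -0.68 ± 0.08 (null Eα, adjusted p = 2.97e-05). The small null difference was not called without flox replicate 2 (-0.21), without flox replicate 3 (-0.20) and without null replicate 2 (-0.17), after quantile normalization (-0.03) or with arrays centred on their median (-0.14), and with each chromosome centred it turned to 0.02. Both genes lie on chromosome 11, whose brighter genes stood at medians of -0.24 (null) and -0.60 (null Eα) from flox. The null shift was not particular to this chromosome. Chromosomes 7, 15, 17 and 19 stood at -0.25, -0.23, -0.23 and -0.25, chromosome 8 at -0.56, and only chromosome 3 (0.12) lay above 0. In null Eα cells only chromosomes 6 (-0.61) and 8 (-0.66) stood as low. With each chromosome centred, Aurkb was still called lower in both lines, with differences of -0.94 and -1.12, whereas Birc5 in null Eα cells was at -0.08 and not called. Incenp, the scaffold, and Cdca8, borealin, were within 0.13 of flox in both lines and not called. Both were called higher in null Eα cells after quantile normalization (0.36 and 0.34) and with each chromosome centred (0.35 and 0.26). In null cells Cdca8 was called under the same settings (0.33 and 0.29), and Incenp, at -0.02 as deposited, was called at 0.22 with each chromosome centred.

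Checkpoint genes went in opposite directions. Mad2l1, which encodes Mad2, the inhibitor of Cdc20 (10538832), lay at 10.31, 10.38 and 10.32 on the flox arrays, at 10.72, 10.68 and 10.78 on the null arrays and at 9.63, 9.80 and 9.70 on the null Eα arrays. It rose in null cells, by 0.39 ± 0.07 (adjusted p = 8.79e-04), and fell with the fusion, at -0.62 ± 0.07 from flox (adjusted p = 3.82e-05). It was the only one of the 35 genes called on opposite sides of flox in the 2 lines. It lies on chromosome 6, whose brighter genes stood at medians of -0.22 and -0.61 from flox. With each chromosome centred the null rise was 0.61 and the null Eα difference -0.02, no longer called. Bub1, a kinase of the checkpoint (10487480), lay at 10.88, 10.97 and 10.97 on the flox arrays, at 10.54, 10.61 and 10.61 on the null arrays and at 10.14, 10.33 and 10.64 on the null Eα arrays. Every array of both lines lay below flox, at -0.35 ± 0.11 (null, adjusted p = 0.0220) and -0.57 ± 0.11 (null Eα, adjusted p = 0.00146). The null call was lost without flox replicate 2 (-0.33), without flox replicate 3 (-0.34) and without null replicate 1 (-0.33), after quantile normalization (-0.27), with arrays centred on their median (-0.27) and with each chromosome centred (-0.20). Its relative Bub1b, BubR1, which binds and restrains Cdc20, was higher in both lines, by 0.33 ± 0.10 and 0.25 ± 0.10 (adjusted p = 0.0128 and 0.0382). That call was lost in null cells without null replicate 2 (0.27), and in null Eα cells without flox replicate 1 (0.22), flox replicate 2 (0.25), null replicate 3 (0.25) or null Eα replicate 3 (0.17). Ttk, the Mps1 kinase at the head of the checkpoint, lay at -0.06 ± 0.07 and -0.09 ± 0.07 and was not called. After quantile normalization it was called at 0.24 in null Eα cells.

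Among the genes of anaphase, the strongest fall of the 35 in null cells was in Ube2c, the enzyme that hands ubiquitin to the anaphase-promoting complex. Ube2c (10478572) lay at 10.55, 10.68 and 10.59 on the flox arrays, at 9.01, 9.03 and 9.25 on the null arrays and at 9.50, 9.45 and 9.41 on the null Eα arrays. Null arrays were lowest and null Eα arrays stood between them and flox, with no overlap. It fell in both lines, with differences from flox of -1.51 ± 0.08 (null, adjusted p = 1.67e-07) and -1.16 ± 0.08 (null Eα, adjusted p = 1.50e-06), which left 35.1% and 44.9% of flox. Pttg1, securin, the inhibitor of separase (10385325), lay at 9.49, 9.44 and 9.65 on the flox arrays, at 8.71, 8.88 and 8.94 on the null arrays and at 8.50, 8.77 and 8.87 on the null Eα arrays. It was lower on every array of both lines, at -0.68 ± 0.11 (adjusted p = 3.62e-04) and -0.81 ± 0.11 (adjusted p = 1.17e-04). It too lies on chromosome 11, and with each chromosome centred its differences were -0.44, still called, and -0.21 in null Eα cells, not called. Cdc20, the activator of the complex, fell by 0.22 ± 0.07 in null cells (adjusted p = 0.0213) and lay at -0.14 ± 0.07 in null Eα cells (adjusted p = 0.0920). The null call was lost without flox replicate 1 (-0.20), null replicate 1 (-0.18) or null replicate 2 (-0.22), after quantile normalization (-0.03), with arrays centred on their median (-0.14) and with each chromosome centred (-0.05). Espl1, separase itself, was at -0.12 ± 0.07 and -0.10 ± 0.07 and not called. After quantile normalization it was called at 0.22 in null Eα cells.

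Of 7 kinetochore genes 3 rose and 1 fell in null cells, and 1 rose and 2 fell in null Eα cells. The share called was 57.1% and 42.9%, against 55.2% and 63.7% of all genes. Nuf2, a subunit of the Ndc80 complex that grips microtubules (10359890), lay at 8.75, 8.92 and 8.87 on the flox arrays, at 9.70, 9.67 and 9.70 on the null arrays and at 9.30, 9.42 and 9.59 on the null Eα arrays. All arrays of both lines lay above flox, by 0.84 ± 0.09 (adjusted p = 1.36e-05) and 0.59 ± 0.09 (adjusted p = 2.14e-04), or 180% and 150% of the flox signal. Cenpe, a motor that carries chromosomes to the spindle equator (10496204), lay at 9.23, 9.26 and 9.33 on the flox arrays, at 10.16, 10.13 and 10.27 on the null arrays and at 9.0, 9.10 and 9.71 on the null Eα arrays. It rose by 0.92 ± 0.16 in null cells (adjusted p = 5.52e-04), while its null Eα arrays lay on both sides of flox (-0.01 ± 0.16, adjusted p = 0.979). Without null Eα replicate 3 the null Eα value was -0.22 and called (adjusted p = 0.0308). The 3 other subunits of the Ndc80 complex did not all follow Nuf2. Spc25 rose by 0.55 ± 0.12 in null cells (adjusted p = 0.00336) and was at 0.27 ± 0.12 in null Eα cells (adjusted p = 0.0758), a difference called without null Eα replicate 1 (0.36) and, at the same size, with the replicate number as a block (adjusted p = 0.0353). Spc24 was at 0.06 ± 0.08 and 0.18 ± 0.08, not called. The latter was called without null Eα replicate 2 (0.22) and under 5 further alternatives, and both were called after quantile normalization (0.26 and 0.51). Ndc80 itself was at -0.17 ± 0.09, not called, and -0.22 ± 0.09 in null Eα cells, a call (adjusted p = 0.0472) lost under 14 of 18 alternatives, among them each omission of a null array or of flox replicate 2 or 3 or null Eα replicate 1 or 3 (-0.16 to -0.23).

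Cenpa, the histone variant that marks centromeres (10520521), went the other way. It lay at 10.61, 10.65 and 10.65 on the flox arrays, at 9.82, 9.75 and 9.93 on the null arrays and at 10.05, 10.08 and 10.08 on the null Eα arrays. The groups did not overlap, and it fell in both lines, with differences from flox of -0.80 ± 0.07 (null, adjusted p = 3.97e-06) and -0.56 ± 0.07 (null Eα, adjusted p = 6.31e-05). Cenpf, a large protein of the outer kinetochore, was at 0.27 ± 0.11 in null cells (adjusted p = 0.0592), above flox on every array, and at -0.02 ± 0.11 in null Eα cells. The null difference was called under 10 of 18 alternatives, among them without null replicate 1 (0.35) and without null Eα replicate 3 (0.27).

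Spindle motors and spindle proteins gave a mixed picture. Tpx2, which activates Aurora A and nucleates microtubules around chromosomes (10477187), lay at 10.01, 10.01 and 10.06 on the flox arrays, at 10.45, 10.52 and 10.48 on the null arrays and at 10.29, 10.58 and 10.35 on the null Eα arrays. It was above flox on every array of both lines, by 0.46 ± 0.08 (adjusted p = 8.63e-04) and 0.38 ± 0.08 (adjusted p = 0.00265). Kif20a, a kinesin of the midzone needed for cytokinesis (10454709), lay at 10.43, 10.44 and 10.49 on the flox arrays, at 10.14, 9.86 and 9.95 on the null arrays and at 10.22, 10.22 and 10.17 on the null Eα arrays. It fell in both lines, with differences from flox of -0.47 ± 0.08 (null, adjusted p = 6.41e-04) and -0.25 ± 0.08 (null Eα, adjusted p = 0.0220), the latter lost without flox replicate 2 (-0.26) or flox replicate 3 (-0.23), after quantile normalization (-0.01), with arrays centred on their median (-0.19) and with each chromosome centred (-0.15). Kif11, the motor that pushes the spindle poles apart, fell in both lines, at -0.33 ± 0.07 and -0.32 ± 0.07 (adjusted p = 0.00175 and 0.00209). Both calls were lost with each chromosome centred (-0.08 and -0.02), and the null Eα one after quantile normalization as well (-0.08). Prc1, which bundles midzone microtubules, and Kif2c, a kinesin that takes microtubules apart, were not called in null cells (0.18 ± 0.08 and 0.09 ± 0.07) and were called higher in null Eα cells (0.24 ± 0.08 and 0.20 ± 0.07, adjusted p = 0.0289 and 0.0393). In null cells Prc1 was called without null replicate 1 (0.26), and both were called after quantile normalization (0.37 and 0.24). In null Eα cells its call was lost without flox replicate 1 (0.22), flox replicate 3 (0.24) or null Eα replicate 2 (0.23), and that of Kif2c without flox replicate 1 (0.15), flox replicate 2 (0.20), null replicate 2 (0.20), null Eα replicate 1 (0.19) or null Eα replicate 2 (0.17), and with the replicate number as a block (adjusted p = 0.0571). Kif23, the kinesin of centralspindlin, was not called (-0.08 ± 0.07 and -0.06 ± 0.07) and was called at 0.23 in null Eα cells after quantile normalization.

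Of the pair of cytokinesis genes 1 fell. Anln, anillin, which ties the contractile ring to the membrane (10591781), lay at 10.13, 10.25 and 10.26 on the flox arrays, at 9.68, 9.75 and 9.98 on the null arrays and at 9.51, 9.60 and 9.62 on the null Eα arrays. It was below flox on all arrays of both lines, at -0.41 ± 0.09 (adjusted p = 0.00290) and -0.64 ± 0.09 (adjusted p = 1.56e-04). Ect2, which activates RhoA at the cleavage site (10497520), lay at 10.60, 10.63 and 10.76 on the flox arrays, at 10.52, 10.69 and 10.64 on the null arrays and at 10.46, 10.60 and 10.53 on the null Eα arrays. The groups overlapped and neither difference was called (-0.05 ± 0.08 and -0.13 ± 0.08), under any of the alternatives.

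Top2a and Mki67, genes often used to mark dividing cells, were not called lower in either line. Top2a, topoisomerase IIα, which untangles sister chromatids (10390707), lay at 11.25, 11.32 and 11.37 on the flox arrays, at 11.67, 11.80 and 11.78 on the null arrays and at 11.17, 11.27 and 11.43 on the null Eα arrays. It rose by 0.44 ± 0.08 in null cells (adjusted p = 0.00126) and lay at -0.03 ± 0.08 in null Eα cells, where the arrays spread over the flox range. Top2a lies on chromosome 11, and with each chromosome centred its null Eα value turned to 0.58 and was called. A second, dim feature of Top2a, at 4.97 to 5.11 in the group means, differed by 0.14 in null cells. Mki67, which encodes Ki-67, a protein of the mitotic chromosome surface (10568714), lay at 10.29, 10.36 and 10.42 on the flox arrays, at 10.42, 10.50 and 10.51 on the null arrays and at 9.94, 9.97 and 10.42 on the null Eα arrays. Null Eα replicate 3 stood with the flox arrays and the other null Eα arrays below them, and neither difference from flox was called (0.12 ± 0.12 and -0.25 ± 0.12). Without null Eα replicate 3 the null Eα value was -0.40 and called, and with each chromosome centred the null value was 0.38 and called.

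Between the lines without β-catenin, with and without the fusion, 8 of the 35 genes were called lower and 2 higher with the fusion, where 18.1% and 13.6% of all genes were called (31.7% in either direction). A fall of 2-fold or more was called in 1 and a rise in 0, against 3.13% and 1.7% of all genes. The 2 higher were Ube2c (0.36 ± 0.08, adjusted p = 0.00940) and Cenpa (0.24 ± 0.07, adjusted p = 0.0257), both lower than flox in each line. The Cenpa call was lost without null replicate 1 (0.23), null replicate 2 (0.20) or null Eα replicate 2 (0.23). The largest differences were in Mad2l1 (-1.02 ± 0.07, adjusted p = 7.15e-06) and Cenpe (-0.92 ± 0.16, adjusted p = 0.00151). Aurkb (-0.54 ± 0.09, adjusted p = 0.00139), Birc5 (-0.46 ± 0.08, adjusted p = 0.00125) and Top2a (-0.46 ± 0.08, adjusted p = 0.00226) were lower as well, and so were Mki67 (-0.37 ± 0.12, adjusted p = 0.0379), Plk1 (-0.33 ± 0.09, adjusted p = 0.0163) and Nuf2 (-0.26 ± 0.09, adjusted p = 0.0460). For each of these 10 genes the null and null Eα arrays did not overlap. That held for 43% of all genes, and for 15 of the 35. The cyclins Ccna2 (-0.08 ± 0.07) and Ccnb2 (-0.01 ± 0.11) were not called, nor was any of the 6 spindle motors and spindle proteins. Kif20a among these was at 0.22 ± 0.08 (adjusted p = 0.0635) and was called higher without null replicate 1 (0.30), among other alternatives.

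Several of these calls moved with single arrays or with the chromosome. The number called lower was 5 without null replicate 2, null replicate 3, null Eα replicate 1 or null Eα replicate 2, and 12 without null Eα replicate 3. The number called higher was 1 without null replicate 2 or null Eα replicate 2. The shares of all genes called after each omission were not counted, so these changes in number need not be particular to the 35 genes. Plk1 was lost without null replicate 2 (-0.31), null replicate 3 (-0.29), null Eα replicate 1 (-0.31) or null Eα replicate 2 (-0.28). Nuf2 (-0.19 to -0.26) and Mki67 (-0.28 to -0.40) were lost without any 1 flox or null array, and without null Eα replicate 1 or 2. Bub1 (-0.35), Cenpf (-0.41), Spc25 (-0.41) and Cdk1 (-0.25) were called lower only when null Eα replicate 3 was left out or, for Bub1 and Spc25, when arrays were weighted, and for Cenpf also under the replicate block, with weights and without null replicate 1 (-0.37). Anln was called without null replicate 1 (-0.29), with a trend and robust prior and under the replicate block. Between null Eα and null arrays the brighter genes of chromosomes 6, 11 and 3 had median differences of -0.39, -0.36 and -0.25, against -0.18 to -0.02 on the other chromosomes. Of the 8 genes called lower, 3 lie on chromosome 11, 1 on chromosome 6 and 1 on chromosome 3. With each chromosome centred, Aurkb (-0.18), Birc5 (-0.10) and Top2a (-0.10) were no longer called, and neither was Nuf2 (-0.18). Mad2l1 (-0.63) and Cenpe (-0.67) were still called, as were Plk1 and Mki67. That setting gave 3 higher and 4 lower of the 35, beside 26.7% and 14% of all genes, and quantile normalization gave 5 and 5, beside 14.4% and 15.8%. In the fit of the brighter genes alone 18.1% were called higher and 31% lower (49.2% in either direction), and 3 and 8 of the 35.

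**Figure D3:**
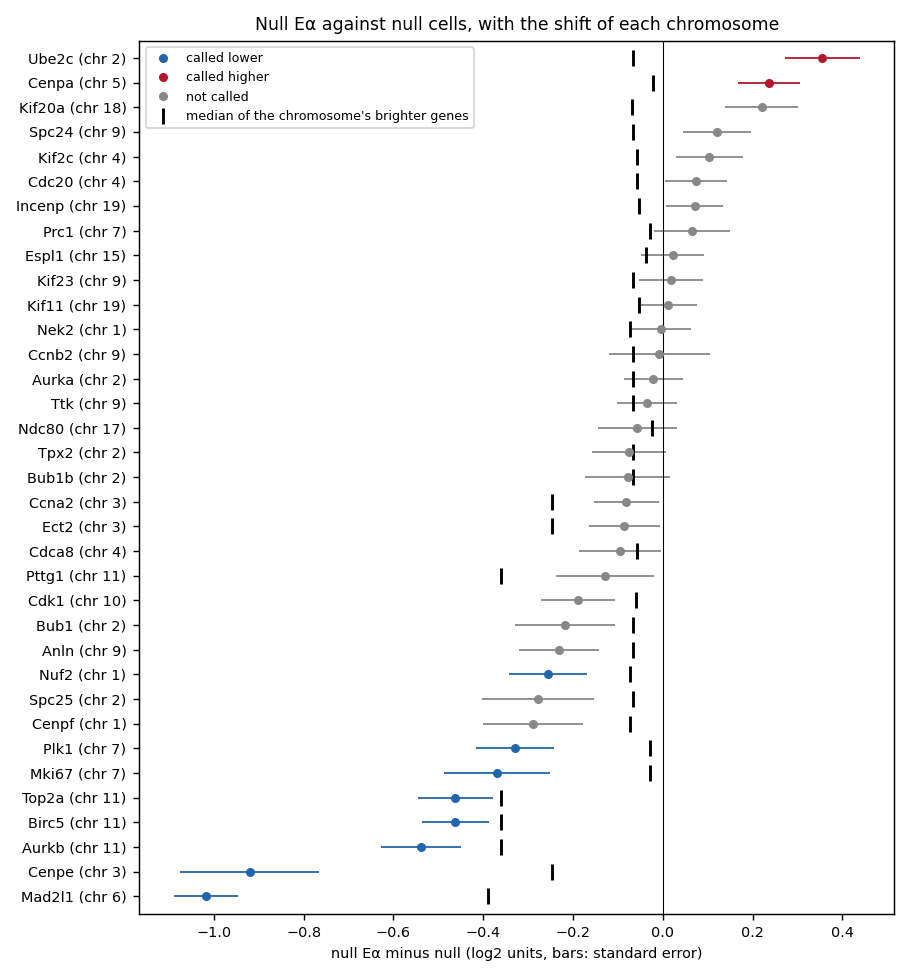
Null Eα minus null difference of each of the 35 genes (points, log2 units, bars are standard errors), coloured by call, with a black tick at the median shift of the brighter genes of its chromosome. Aurkb, Birc5 and Top2a lie near the tick of chromosome 11 at -0.36, and Mad2l1 and Cenpe lie well below theirs.

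How many of the 35 genes rose or fell against flox depended on the scaling. After quantile normalization, which gives all 9 arrays 1 distribution, 14 genes were higher and 11 lower in null cells, with a median of 0.11, and 15 higher and 12 lower in null Eα cells, with a median of 0.10. All genes then gave 24.2% higher and 26.6% lower in null cells, and 24.8% and 26.4% in null Eα cells. With each chromosome centred, 15 were higher and 9 lower in null cells, and 12 higher and 9 lower in null Eα cells, with medians of 0.07 and 0.08, beside 45.9% higher and 23.4% lower, and 55.3% and 21.1%, of all genes. The number called higher in null Eα cells was 2 without flox replicate 1 and 3 without flox replicate 2. The share of all genes called higher after these omissions was not counted. Ccna2, Ccnb2, Cdk1, Aurkb, Ube2c, Pttg1, Cenpa, Kif20a and Anln were called lower in null cells under each of 18 alternatives, and Mad2l1, Cenpe, Nuf2, Spc25, Tpx2 and Top2a were called higher. In null Eα cells the falls of Ccna2, Ccnb2, Cdk1, Plk1, Aurkb, Bub1, Ube2c, Cenpa and Anln and the rises of Nuf2 and Tpx2 were called under each of the 18.

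**Figure D4:**
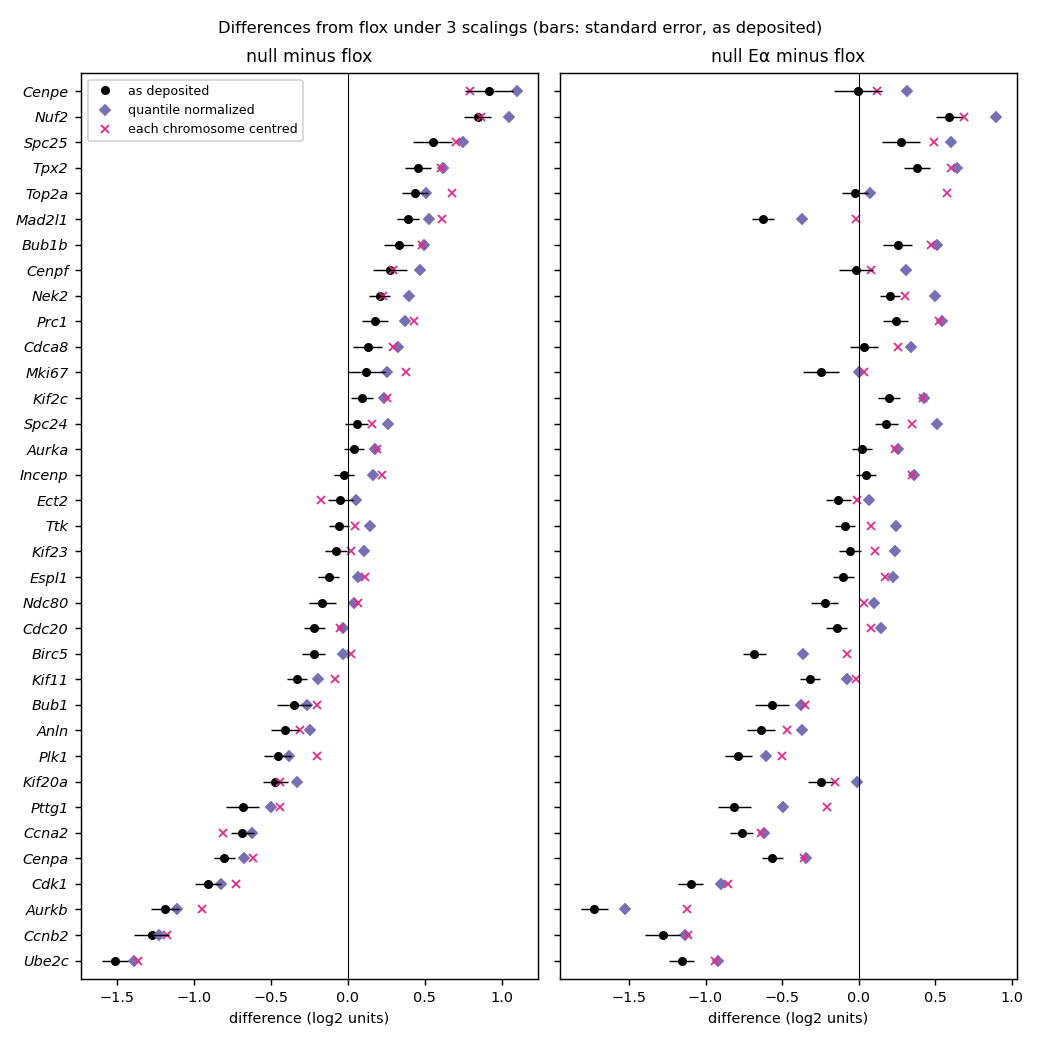
Difference from flox of each of the 35 genes in null cells (left) and null Eα cells (right), in log2 units, as deposited (black, bars are standard errors), after quantile normalization (purple diamonds) and with each chromosome centred (pink crosses). The genes at the bottom, from Ube2c to Ccna2, stay below 0 in null cells under all 3, while those near the middle cross it.

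Other genes of the pathway were counted in 9 lists with 135 measured genes. In null cells 31 of the 135 were higher and 59 lower, with a median of -0.15, and in null Eα cells 19 were higher and 70 lower, with a median of -0.24. In percent, 43.7% and 51.9% of these genes were lower, close to the 43.8% and 49.9% called lower among the brighter genes of the array, fitted alone. The shares called higher were 23% and 14.1%, against 27.9% and 21.2% of the brighter genes. After quantile normalization the counts were 47 higher and 44 lower, and 43 higher and 44 lower. For the single lists that follow, 26.5% of all genes were higher and 28.7% lower in null cells. Of the brighter genes 27.9% were higher and 43.8% lower. The condensin subunits, which compact chromosomes, gave 5 rises and 2 falls of 8 in null cells (median 0.30). The partners of mitotic entry gave 3 and 7 of 13, and cohesin with its protectors 5 and 5 of 13. The list of the anaphase-promoting complex and of mitotic exit gave 5 and 6 of 16. Kinetochore partners gave 3 and 9 of 23, spindle and centrosome partners 5 and 11 of 24, checkpoint partners 2 and 1 of 9, and cytokinesis partners 1 and 3 of 6. Cks2, a small subunit of Cdk1 complexes, fell in both lines, at -2.22 ± 0.07 and -2.08 ± 0.07 (adjusted p = 4.70e-09 and 2.29e-08), more than any of the 35 genes. Cks2 had 3 features with a single symbol. These values come from the brightest (10424779), and the others are not shown here. Cenpm, of the inner kinetochore, fell as well, at -2.64 ± 0.09 and -1.61 ± 0.09, and the null Eα arrays exceeded the null arrays by 1.03 ± 0.09 (adjusted p = 2.56e-05). Tubg1, γ-tubulin, which nucleates spindle microtubules, was at -1.56 ± 0.11 and -2.76 ± 0.11 from flox, both called, and the null Eα minus null difference was -1.20 ± 0.11. It lies on chromosome 11. Tacc3, which stabilises kinetochore fibres, rose by 1.05 ± 0.08 and 0.88 ± 0.08, and Stag1, a subunit of cohesin, by 0.78 ± 0.09 and 0.83 ± 0.09.

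Regulators of transcription in G2 and M, a list that holds activators and also repressors such as E2f6 and the Rb family, were mostly called lower. Of 23 measured regulators 15 fell and 2 rose in null cells, with a median of -0.64, and 16 fell and 1 rose in null Eα cells, with a median of -0.71. Among all genes 28.7% were called lower and 26.5% higher in null cells, and 31.6% and 32.1% in null Eα cells, and among the brighter genes 43.8% and 49.9% were lower. After quantile normalization 14 fell and 4 rose in null cells, and 13 fell and 3 rose in null Eα cells. Mybl2, B-Myb, lay at 11.62, 11.67 and 11.65 on the flox arrays, at 8.68, 8.64 and 8.54 on the null arrays and at 10.98, 11.12 and 10.71 on the null Eα arrays. It fell in both lines, with differences from flox of -3.02 ± 0.10 (null, adjusted p = 6.51e-09) and -0.71 ± 0.10 (null Eα, adjusted p = 1.80e-04), and the null Eα arrays exceeded the null arrays by 2.32 ± 0.10 (adjusted p = 2.88e-07). Foxm1, chosen for mention after its values were seen, lay at 9.21, 9.20 and 9.10 on the flox arrays, at 8.13, 8.14 and 8.39 on the null arrays and at 7.84, 7.83 and 7.90 on the null Eα arrays. Its differences from flox were -0.95 and -1.31, both called, and the null Eα arrays, above the null arrays for Mybl2, were below them for Foxm1. Foxm1 lies on chromosome 6, whose brighter genes had a median null Eα minus null difference of -0.39. The part of this shift in the Foxm1 values was not tested. E2f6, a repressor of the E2F family, rose in null cells, by 0.48 ± 0.09, and fell with the fusion, at -0.78 ± 0.09, and the lines differed by -1.26 ± 0.09 (adjusted p = 1.11e-05).

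Genes of DNA replication, a neighbouring part of the cell cycle, gave 22 falls and 3 rises of 29 in null cells (median -0.56) and 19 falls and 3 rises in null Eα cells (median -0.50), beside the same shares of all and of brighter genes. After quantile normalization there were 19 falls and 4 rises in null cells (median -0.47), and 15 and 7 in null Eα cells (median -0.23). The 35 mitosis genes, as above, had medians of -0.06 and -0.13. Between null Eα and null cells, 6 replication genes were higher and 2 lower, where 13.6% and 18.1% of all genes were called. The counts were 12 and 2 after quantile normalization, beside 14.4% higher and 15.8% lower of all genes. With each chromosome centred they were 11 and 0, beside 26.7% and 14% of all genes. A further list of 14 measured genes held G1 cyclins, the kinases Cdk2, Cdk4 and Cdk6, and inhibitors of cyclin-dependent kinases. It gave 5 rises and 3 falls in null cells and 4 and 4 in null Eα cells. Of all genes 26.5% were called higher and 28.7% lower in null cells, and 32.1% and 31.6% in null Eα cells. The lists were not tested against each other.

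**Figure D5:**
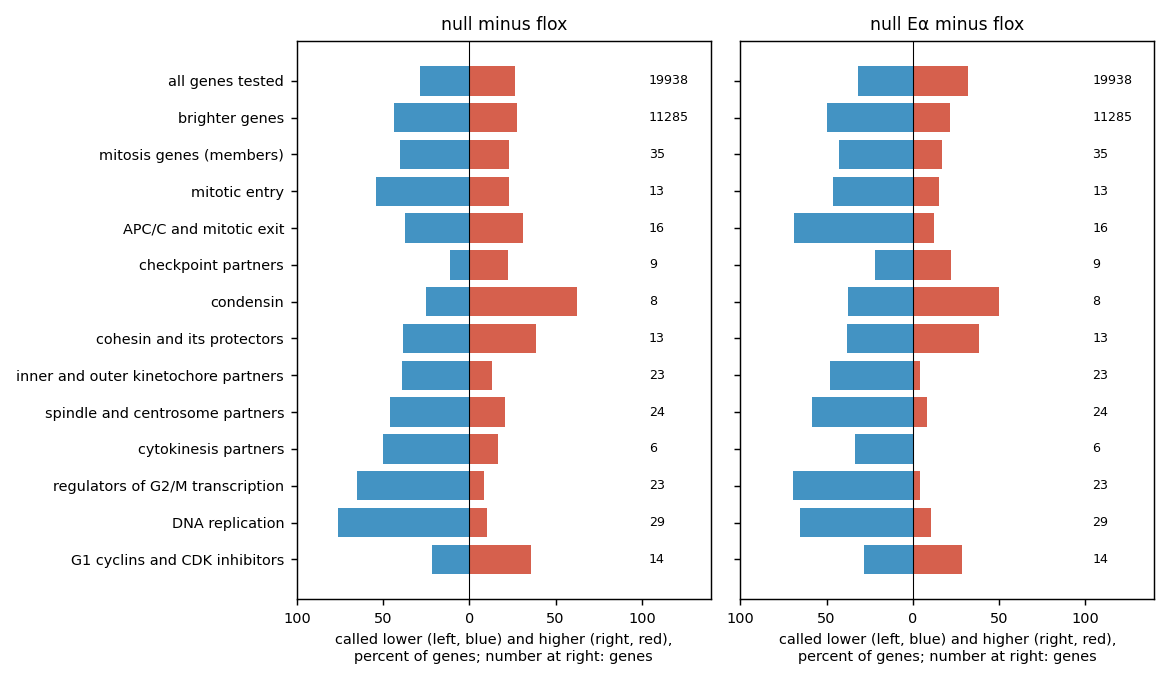
Percent of genes called lower (blue, to the left) and higher (red, to the right) than flox in null cells (left panel) and null Eα cells (right panel), for all 19938 genes, the 11285 brighter genes, the 35 mitosis genes and the lists of related genes, with the number of genes at the right. The brighter genes were fitted alone. The mitosis genes sit near the brighter genes, while replication genes and regulators of G2 and M transcription lie mostly to the left.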

How the data were processed

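The authors deposited log2 values made with RMA (version not given in the sources used here), 1 per transcript cluster and array, per the submitters' processing notes. Whether the 9 arrays were normalized together is not stated, and values were used as deposited. Of 35556 features, 21789 carried a single symbol in the platform's gene table, 1621 carried several and were left out, and 12146 were not in it. For the 999 genes with several features the brightest on average was kept. Chromosome numbers and promoter sequences came from RefSeq (GRCm38.p6), and array coordinates were not used. The members and lists were chosen with earlier results of these data known.

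A linear model with 1 mean per group was run on all 9 arrays (limma 3.58.1, functions lmFit and eBayes, R 4.3.3), with 6 residual degrees of freedom and 4.04 from the prior. Genes were called where the p-value, adjusted by Benjamini-Hochberg over 19938 genes, was under 0.05. Shares among the brighter genes came from a fit of those genes alone, adjusted over 11285. Each ± gives a standard error from that model. The model was tested on simulated data. Brighter genes, for counts, had a mean at or above the median over features (6.01), and for the shift of a chromosome a mean at or above the median over genes (6.45). Alternatives were quantile normalization, centring each array or each chromosome, leaving out dim genes, averaging features, fitting only the groups compared, a trend and robust prior, a replicate block, array weights and leaving out each array. Values by array were given for the 2 members of each role with the smallest p over the 3 comparisons and for members called between null Eα and null. Of the related genes, the 2 with the smallest adjusted p per comparison and direction were named. Some genes of the lists were not analysed here. The number of arrays limits the precision.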

Additional observations from a re-analysis of the deposited data

How the results depend on the processing

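After quantile normalization, which gives the arrays 1 distribution, 14 members were higher in null than in flox cells (median difference 0.11), 15 higher in null Eα than in flox cells (median 0.10), and 5 higher and 5 lower between null Eα and null cells. Among differences called as deposited or after quantile normalization, those of Ttk (0.24), Espl1 (0.22), Cenpf (0.31), Ndc80 (0.10) and Kif23 (0.23) between null Eα and flox then had the opposite sign. Small differences called under neither scaling also changed sign in places and are not listed. With each chromosome centred, 15 were higher and 9 lower in null cells (median 0.066), 12 higher and 9 lower in null Eα cells (median 0.077), and 4 lower in null Eα than in null cells (median 0.0315). Among differences called as deposited or with each chromosome centred, Incenp (0.22) and Birc5 (0.022) in null cells and Ndc80 (0.034) and Top2a (0.58) in null Eα cells changed sign against flox. Here too, sign changes of differences called under neither scaling are not listed. Fitting only the groups compared left 1 call of higher in null Eα against null arrays, and the share of all genes called in that fit was not counted. The cause was not tested.

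Leaving out each array in turn gave 7 to 10 higher and 12 to 14 lower in null against flox cells (median -0.08 to -0.03), 2 to 6 higher and 13 to 16 lower in null Eα against flox cells (median -0.17 to -0.10), and 1 to 2 higher and 5 to 12 lower in null Eα against null cells (median -0.12 to -0.03). Same-numbered arrays of different groups had deviations that correlated at -0.04 to 0.26, not all above 0.1, and the labels do not say that a number marks a shared batch, so the block was kept as an alternative. In 12 of 18 cases an array correlated best with its own number in another group, a hint of pairing from the data. Replicate 3 was the highest of its group for 21 (flox), 22 (null) and 20 (null Eα) of the 35 members, and replicate 1 the lowest for 27, 21 and 21. Replicate 3 also had the highest upper quartile over all features in each group (8.21, 7.99 and 7.93). The lowest upper quartile was that of replicate 1 in flox (8.15), but of replicate 2 in null (7.93) and null Eα cells (7.83). The same counts were not made over all genes, so whether the order of the replicates is particular to the members was not tested. With the replicate block, members higher and lower were 9 and 14 in null against flox, 6 and 14 in null Eα against flox, and 2 and 10 in null Eα against null cells. The shares of all genes called under the block and after each omission were not counted. Whether these changes in number are particular to the members was therefore not tested. The block lost the calls of Ndc80 and Kif2c and gained Spc25 in null Eα against flox cells, gained Cenpf in null against flox cells, and gained Cenpf and Anln in null Eα against null cells. Calls that held under all 18 alternatives were 9 of 14 lower and 6 of 8 higher in null cells, 9 of 15 and 2 of 6 in null Eα cells, and 2 of 8 and 1 of 2 between them. All members lay above the filter on dim genes.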
